A study of Mus musculus with 11 samples.

Results

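The nuclear genes of the mitochondrial respiratory chain and ATP synthase were taken from gene-level RNA-seq tables of 3 mouse cell lines. Members were chosen by symbol alone: Nduf genes of the a, b, c, s and v subgroups for complex I, Sdha to Sdhd for complex II, Uqcr genes for complex III, Cox4 to Cox8 genes for complex IV and Atp5 genes for complex V. The rule found 84 entries among the 23849 in each table (23355 symbols), with 37 in complex I, 4 in complex II, 8 in complex III, 18 in complex IV and 17 in complex V. The tables hold 0 entries on the mitochondrial chromosome, so the subunits encoded there were not analysed here. The symbols do not map perfectly onto the complexes: Atp5s and Atp5sl carry an ATP synthase name but their products are not subunits of the enzyme, Ndufa4 was named for complex I and its product is now counted with complex IV, and Cox7a2l encodes a factor that joins complexes III and IV.

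The groups were ES cells (E14, 129/Ola strain), kept on gelatin with LIF and serum, NIH3T3 fibroblasts (NIH/Swiss strain) and NMuMG mammary epithelial cells (NAMRU strain). Cultures either carried a BRE reporter, a transgene driven by a BMP response element, or were parental, and no BMP treatment is named in the labels. ES cells gave 3 replicates (2 reporter cultures, the first as the mean of 2 technical runs, and 1 parental culture), NIH3T3 gave 3 and NMuMG gave 4 (2 reporter and 2 parental cultures). The sample titles name 1 reporter line per parental line. NIH3T3 replicate 1 was parental, whereas the tables of replicates 2 and 3 could not be matched to single samples, which the labels list as reporter cultures. The 3 lines were grown in different media, so line, strain and medium cannot be told apart. Nothing in the labels says whether replicates came from separate thaws or passages, and the p-values measure only the spread between these samples. In bulk RNA, fewer cells of a type and less RNA per cell cannot be told apart.

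Complexes I, III and IV pass electrons from NADH and ubiquinol to oxygen and pump protons across the inner mitochondrial membrane, complex II feeds in electrons from succinate without pumping, and complex V uses the proton gradient to make ATP. Most subunits are encoded by 1 nuclear gene that is active in nearly every cell. Several small subunits of complex IV come in pairs, with a form found in most tissues and another found mainly in heart and skeletal muscle (Cox6a2, Cox7a1 and Cox8b), in testis (Cox6b2, Cox7b2 and Cox8c) or in lung (Cox4i2).

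The lines carried the markers of their labels. Summed FPKM (a level normalised to transcript length and to sequencing depth) of 5 ES markers was 3379 to 4694 in ES cells and at most 4.31 elsewhere, that of 5 fibroblast markers was 2379 to 4695 in NIH3T3 and at most 4.97 elsewhere, and that of 5 mammary epithelial markers was 4556 to 6739 in NMuMG, 85.6 to 114 in ES cells and at most 0.881 in NIH3T3. Relative depth, read from the upper bounds of entries at 0, was 0.933 to 1.06 in library series 1 (ES parental 1, ES reporter 1, NMuMG parental 1 and NMuMG reporter 1), 1.13 to 1.28 in series 2 (ES reporter 2, NIH3T3 1, NMuMG parental 2 and NMuMG reporter 2) and 3.80 and 3.81 in series 3 (NIH3T3 2 and 3). Series 3 holds no other line, so for those replicates line and series cannot be told apart. The 84 members took 2.64% to 3.72% of the summed FPKM of a library.

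The sequences upstream of 2 isoform pairs are shown because Cox7a1 and Cox6b2 differed most between the lines. RefSeq promoter windows (GRCm38.p6, 250 bases before to 50 after the start) were matched for 69 of the 84 members. The 250 bases upstream of the start are given for both genes of 2 pairs, 5′ to 3′ on the strand of the gene, with each CpG in capitals.
Cox7a1 (chr7:30183921-30184170, plus strand): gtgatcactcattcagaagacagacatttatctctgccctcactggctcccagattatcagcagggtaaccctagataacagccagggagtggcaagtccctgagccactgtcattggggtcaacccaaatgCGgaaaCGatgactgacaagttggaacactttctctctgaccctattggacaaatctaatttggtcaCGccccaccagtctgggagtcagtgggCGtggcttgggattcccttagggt
Cox7a2 (chr9:79759854-79760103, minus strand): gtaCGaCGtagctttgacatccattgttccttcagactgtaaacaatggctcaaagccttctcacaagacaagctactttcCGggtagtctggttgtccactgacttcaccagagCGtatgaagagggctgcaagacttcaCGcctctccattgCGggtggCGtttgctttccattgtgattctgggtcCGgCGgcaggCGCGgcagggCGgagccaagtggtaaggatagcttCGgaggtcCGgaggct
Cox6b2 (chr7:4753095-4753344, minus strand): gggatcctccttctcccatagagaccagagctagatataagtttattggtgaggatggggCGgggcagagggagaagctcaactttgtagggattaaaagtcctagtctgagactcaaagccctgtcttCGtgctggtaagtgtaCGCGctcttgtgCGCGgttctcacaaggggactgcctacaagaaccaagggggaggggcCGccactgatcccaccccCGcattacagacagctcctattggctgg
Cox6b1 (chr7:30626115-30626364, minus strand): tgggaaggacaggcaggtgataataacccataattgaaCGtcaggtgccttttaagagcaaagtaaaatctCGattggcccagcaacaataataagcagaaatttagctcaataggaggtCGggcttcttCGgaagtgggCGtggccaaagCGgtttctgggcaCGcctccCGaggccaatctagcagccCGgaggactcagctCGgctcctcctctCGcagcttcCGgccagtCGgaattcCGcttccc

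The Cox7a1 stretch holds 4 CpG and the Cox7a2 stretch 14, while that of Cox6b2 holds 8 and that of Cox6b1 14. Over the whole 300-base windows the median was 19 CpG in the 69 members and 7 in 27025 RefSeq promoters, and Cox8b, a muscle form, had the fewest of the members with 2. The order within pairs was not uniform: over the whole windows the restricted form had fewer CpG for Cox7a1 (7, with 20 in Cox7a2) and Cox6b2 (10, with 17 in Cox6b1), but the testis form Cox7b2 had 10 and its widely expressed partner Cox7b 5. Motifs of factors known to act on respiratory genes were searched on both strands as exact letters. The palindrome of NRF1, the letters in capitals in the 30-base Uqcrc1 sequence, was found in 5 of the 69 member windows (7.25%) and in 0.977% of all promoters, CCGGAAG (the ETS core bound by GABP) in 15 (21.7%) and 9.12%, AAGATGGC (YY1) in 10 (14.5%) and 2.88%, and AAGGTCA (ERR) in 8 (11.6%) and 4.66%. The YY1 letters stood in 7 complex I and 3 complex V windows and in none of complexes II, III or IV. No window of Cox7a1, Cox7a2 or Cox6b2 held any of the 4. One match of each motif is shown in its 30-base surroundings, on the strand of the gene, with the motif in capitals.
Uqcrc1, NRF1 (chr9:108936668-108936697, plus strand): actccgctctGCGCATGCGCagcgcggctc
Cox8a, ETS on the opposite strand (chr19:7217603-7217632, minus strand): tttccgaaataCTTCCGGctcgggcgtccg
Ndufs4, YY1 (chr13:114388045-114388074, minus strand): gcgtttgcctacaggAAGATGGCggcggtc
Ndufb4, ERR (chr16:37654405-37654434, minus strand): tcctgagcctgAAGGTCAgactcgagaggg

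Respiratory chain genes were among the more abundant mRNAs in all 3 lines. A mean of at least 100 FPKM was reached by 50 of 84 members in ES cells, 49 in NIH3T3 and 46 in NMuMG (59.5%, 58.3% and 54.8%), against 3.26%, 3.08% and 3.23% of all symbols. The median member stood at 120, 110 and 109 FPKM in ES cells, NIH3T3 and NMuMG. Atp5b, the catalytic beta subunit of ATP synthase, was the most abundant member in ES cells and NMuMG, and Cox8a, a small complex IV subunit, in NIH3T3. Levels of the 77 members tested in the line comparisons correlated between lines with Pearson's r of 0.894 for ES and NMuMG, 0.953 for NIH3T3 and NMuMG, and 0.838 for ES and NIH3T3 on the log2(FPKM + 1) scale, against 0.639, 0.713 and 0.623 over all 12350 symbols tested. These are descriptions across genes, which share libraries, and the members span a high range of levels.

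The 3 lines differed by small amounts in most members, and larger differences were found in the isoform genes of complex IV. Changes were tested with limma on log2(FPKM + 1), with adjustment over all symbols, and a member is said to be called, higher or lower at an adjusted p under 0.05. In ES cells against NMuMG, 31 of 77 members were called (40.3%), 26 higher and 5 lower, where 68.2% of all 12350 symbols were called, 30.7% higher and 37.5% lower. The share of members called was thus below that of all symbols, the share higher was 33.8% and the share lower 6.49%. Scaling moved the split: it was 33 higher and 3 lower with median-ratio scaling and 23 higher and 10 lower with quantile normalization, under which the median change of all symbols was 0.07 against −0.09 as deposited. The median log2 change of the members was 0.25, and 96.1% of them lay within 2-fold, compared with 52.9% of all symbols. Only 3 members (Cox6b2, Cox7a1 and Cox7c) passed the test with a fold of at least 2, where 45.8% of all symbols did. That number was 5 without ES parental 1 or without ES reporter 2.

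In NIH3T3 against NMuMG, 19 of 77 members were called (24.7%), 10 higher and 9 lower, and 40.4% of all symbols were called, 16.5% higher and 23.9% lower. With median-ratio scaling the split was 15 higher and 7 lower. The members' median was 0.08, with −0.05 over all symbols, and 2 members (Cox6b2 and Cox7a1, both lower) passed with a fold of at least 2, where 25% of all symbols did. The total count was 10 without NIH3T3 2 (2 higher, 8 lower) and 11 without NMuMG parental 1 or NMuMG reporter 1 (3 higher, 8 lower). The count at 2-fold was 4 without NIH3T3 1. With the library series as replicate block, only the calls of Cox6b2 and Cox7a1 were kept. In that fit the NIH3T3 changes rest on NIH3T3 1 alone, because series 3 holds no other line. NIH3T3 calls lost with the block, here and below, can therefore reflect fewer replicates as well as the series. Within library series 2, which has a lone NIH3T3 library, 0 were called after adjustment and 3 at an unadjusted p under 0.05, where 4.03% of all symbols were called, although all 19 kept their direction. In ES cells against NIH3T3, 33 of 77 members were called (42.9%), 22 higher and 11 lower, and 62.7% of all symbols were called, 30.8% higher and 31.9% lower. The median was 0.18, with 0.03 over all symbols, and 3 members (Atp5sl, Cox6b2 and Cox7a1, all higher) passed with a fold of at least 2, where 43% of all symbols did. With the replicate block 14 members were called, 13 higher and 1 lower, of which 10 were among the 33, and 44.3% of all symbols were called. Within series 2 it was 2 (Cox6b2 and Cox7a1) and 16.6% of all symbols. The 2-fold count in ES against NIH3T3 was 7 without ES reporter 2 and 5 without ES parental 1 or NIH3T3 2. The 3 comparisons share samples in pairs, so they are not independent of each other.

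**Figure D1:**
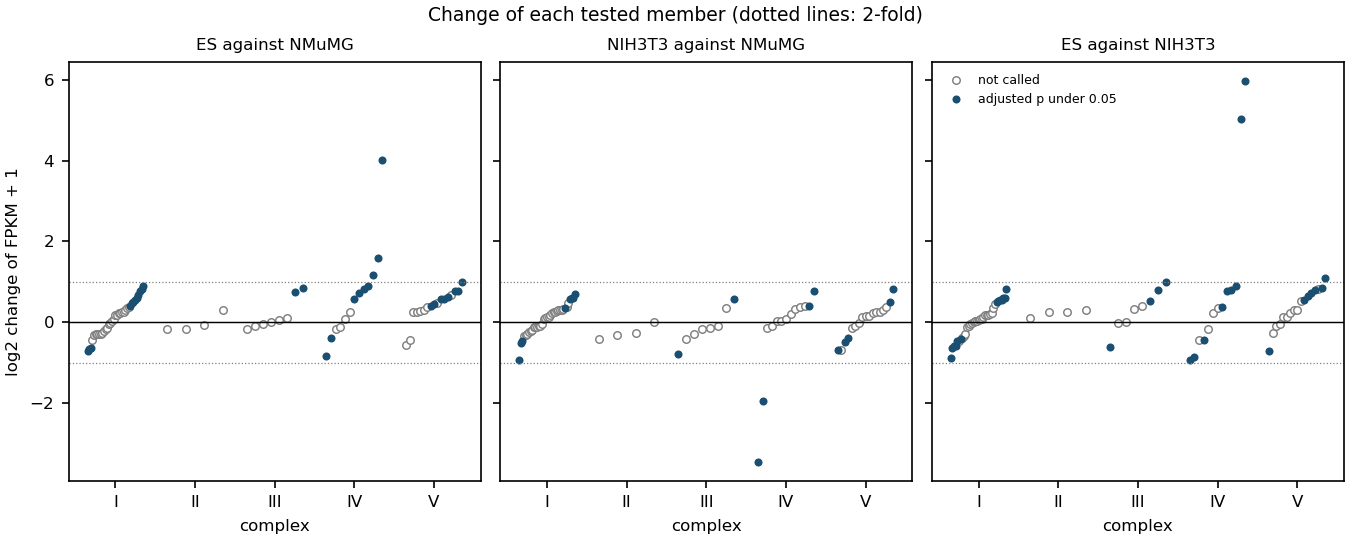
Log2 change of FPKM + 1 for each tested member (points, sorted within a complex), with filled points for an adjusted p under 0.05 and dotted lines at 2-fold. In the 3 panels (ES against NMuMG, NIH3T3 against NMuMG, ES against NIH3T3) nearly all members lie between the dotted lines. Cox6b2 and Cox7a1 of complex IV lie outside them in each panel, by most in ES against NIH3T3. Cox7c (1.17 in ES against NMuMG) and Atp5sl (1.09 in ES against NIH3T3) lie just outside.

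Summed over its genes, complex V was highest in ES cells. Its 17 genes summed to 5022, 5231 and 5220 FPKM in ES replicates (parental 1, reporter 1 and reporter 2), to 3835, 5005 and 3868 FPKM in NIH3T3 replicates 1 to 3 and to 3307, 3724, 3346 and 3801 FPKM in NMuMG (parental 1, parental 2, reporter 1 and reporter 2). All 3 ES values lay above every NIH3T3 and NMuMG value, although NIH3T3 replicate 2 came close to the lowest ES value. Atp5b alone gave 1138, 1294 and 1274 FPKM of the ES sums and 743, 944 and 583 FPKM of the NIH3T3 sums. Without Atp5b, the sum of NIH3T3 replicate 2 lies above that of every ES replicate. The means were 5157 ± 118 FPKM in ES cells (SD, n = 3), 4236 ± 666 FPKM in NIH3T3 (n = 3) and 3544 ± 254 FPKM in NMuMG (n = 4). Complex IV summed to 3732 ± 311 FPKM in ES cells, 3823 ± 254 FPKM in NIH3T3 and 3057 ± 310 FPKM in NMuMG. NMuMG was the lowest there, with 1 of its replicates (3511 FPKM in reporter 2) inside the ES range. The lines overlapped in complex I (4428 ± 466, 4577 ± 110 and 4384 ± 335 FPKM in ES cells, NIH3T3 and NMuMG) and in complex III (1541 ± 93.3, 1402 ± 172 and 1469 ± 158 FPKM). Complex II was the smallest sum, with 362 ± 44.9 FPKM in ES cells, 307 ± 24.4 FPKM in NIH3T3 and 366 ± 19.3 FPKM in NMuMG. As shares of the members' total, complex V took 33.9% ± 1.20 in ES cells, 29.4% ± 2.24 in NIH3T3 and 27.7% ± 1.15 in NMuMG, and complex I took 29.0% ± 1.48, 32.0% ± 1.89 and 34.2% ± 0.595. No test was run on these sums, which add genes chosen with earlier results known.

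**Figure D2:**
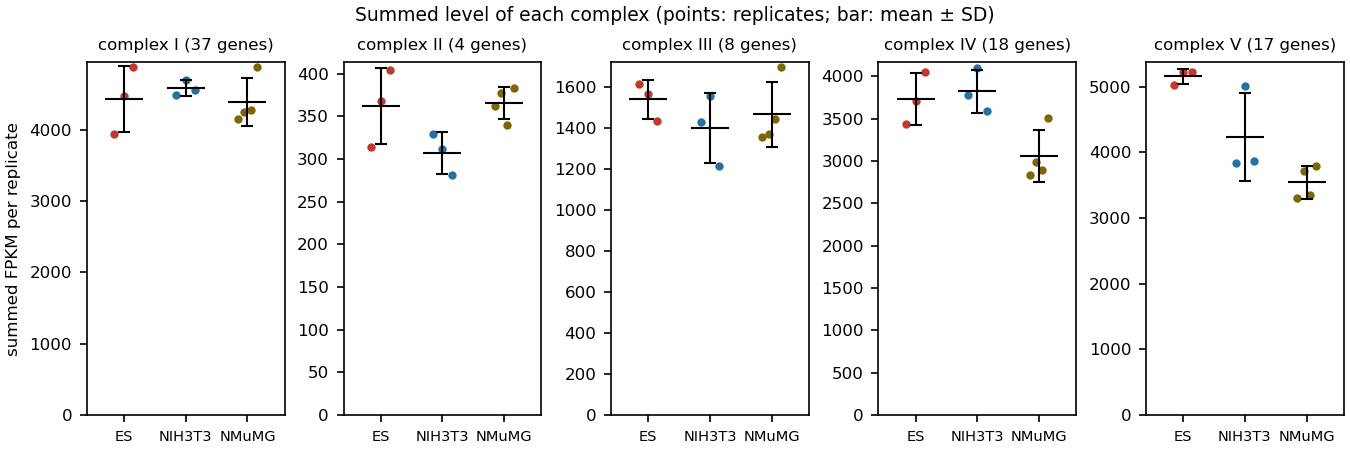
Summed FPKM of the genes of each complex in ES, NIH3T3 and NMuMG replicates (points), with the mean and SD as a bar. The 3 ES points of complex V (5022 to 5231 FPKM) lie above all other points of that panel, whereas the lines overlap in complexes I and III.

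The paired subunits of complex IV gave the clearest differences. Cox7a1, the heart and muscle form of a small subunit, had 35.5, 42.1 and 34.3 FPKM in ES cells, 0, 0.390 and 0.131 FPKM in NIH3T3, and 14.6, 4.61, 17.1 and 15.5 FPKM in NMuMG. It was high in every ES replicate, intermediate in NMuMG with parental replicate 2 well below the other 3, and near or at 0 in NIH3T3, with no overlap between lines. The log2 change was 1.59 ± 0.36 (SE) in ES cells against NMuMG (limma, adjusted p = 0.00295), −3.45 ± 0.36 in NIH3T3 against NMuMG (adjusted p = 2.81e-05) and 5.04 ± 0.39 in ES cells against NIH3T3 (adjusted p = 2.01e-06). Cox7a2, its widely expressed partner, differed far less, with 130, 134 and 108 FPKM in ES cells, 126, 111 and 83.8 FPKM in NIH3T3, and 104, 117, 113 and 132 FPKM in NMuMG, and it was not called in any comparison. Cox7a2l had 102, 103 and 81.0 FPKM in ES cells, 166, 152 and 206 FPKM in NIH3T3, and 160, 139, 173 and 218 FPKM in NMuMG. All ES values lay below all others, and Cox7a2l was lower in ES cells than in NMuMG by −0.84 ± 0.18 (adjusted p = 0.00219) and than in NIH3T3 by −0.87 ± 0.20 (adjusted p = 0.00304, not called with the replicate block).

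Cox6b2, the testis form of the subunit that lies between the monomers of the complex IV dimer, was the member with the largest difference. It had 52.1, 54.7 and 80.4 FPKM in ES cells, was listed at 0 in all 3 NIH3T3 replicates and had 1.43, 3.32, 3.36 and 3.75 FPKM in NMuMG (parental 1, parental 2, reporter 1 and reporter 2). The lines did not overlap. The log2 change in ES cells against NMuMG was 4.02 ± 0.25 (adjusted p = 3.55e-07), and it held under every alternative run. NIH3T3 against NMuMG was called lower (adjusted p = 0.000125) and ES against NIH3T3 higher (adjusted p = 4.43e-08), with no fold given because NIH3T3 was listed at 0. Its partner Cox6b1 had 358, 385 and 395 FPKM in ES cells, 437, 599 and 513 FPKM in NIH3T3, and 464, 480, 479 and 587 FPKM in NMuMG. The ES values were the lowest, with a log2 change of −0.40 ± 0.16 against NMuMG (adjusted p = 0.0415) and −0.43 ± 0.17 against NIH3T3 (adjusted p = 0.0430). Both calls were lost with median-ratio scaling, with no filter, with technical run 2 only and when any 1 ES replicate was left out. The call against NMuMG was also lost without any 1 of the NMuMG replicates. The call against NIH3T3 was also lost without NIH3T3 2, NIH3T3 3, NMuMG parental 1, NMuMG parental 2 or NMuMG reporter 1. The change against NIH3T3 was −0.11 with the block, where it was not called.

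**Figure D3:**
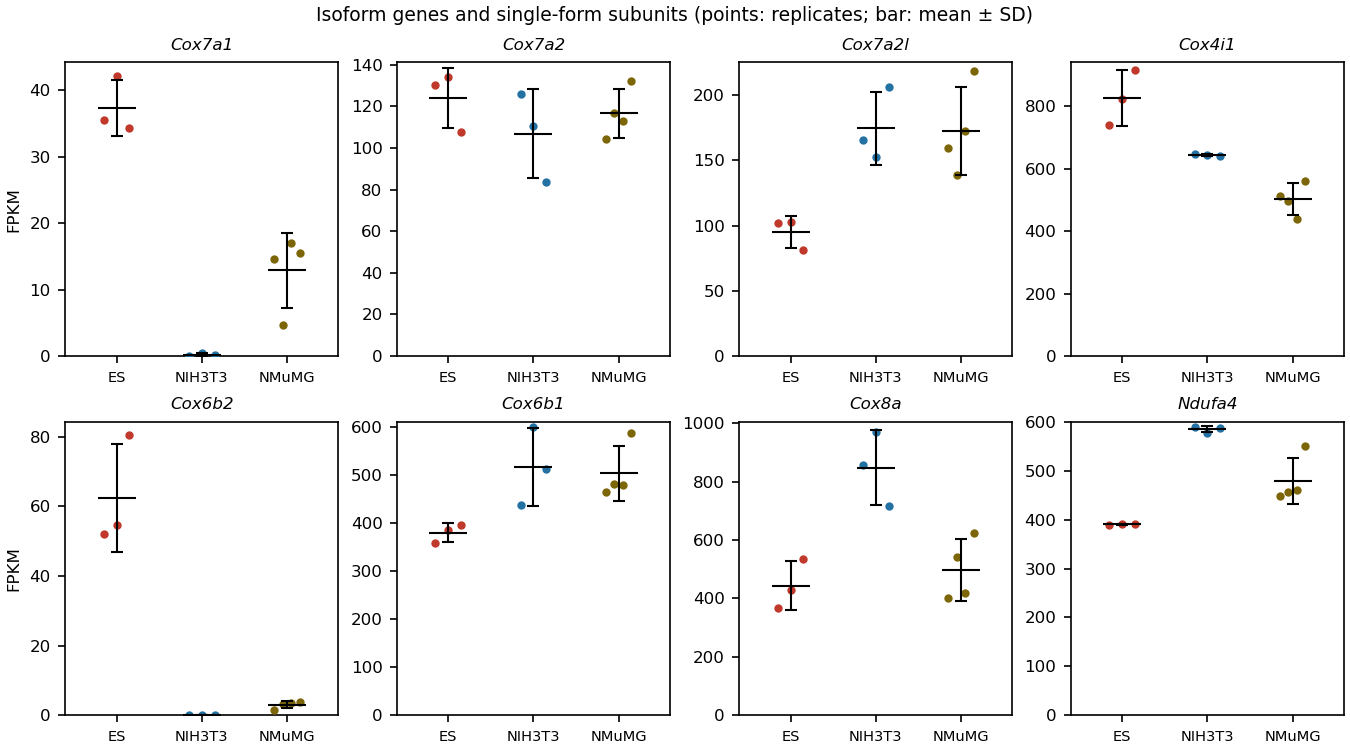
FPKM of 8 members in ES, NIH3T3 and NMuMG replicates (points), with the mean and SD as a bar and each vertical axis starting at 0. Cox7a1 and Cox6b2 are high in ES cells and near or at 0 in NIH3T3, their partners Cox7a2 and Cox6b1 are present in all lines, and Cox8a is highest in NIH3T3.

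As shares of their families, Cox7a1 held 14.6% ± 1.15 of the Cox7a sum (Cox7a1, Cox7a2 and Cox7a2l) in ES cells, 0.0644% ± 0.0759 in NIH3T3 and 4.22% ± 1.73 in NMuMG. Cox6b2 held 14.01% ± 2.51 of the Cox6b sum in ES cells, 0% in NIH3T3 and 0.581% ± 0.185 in NMuMG. Exact two-sided permutation tests gave p = 0.0571 for ES against NMuMG in both families, which is the smallest possible with 3 against 4 replicates, and p = 0.1 for ES against NIH3T3, the smallest with 3 against 3. Adjusted over the 30 shares tested, every p was at least 0.214. The number of replicates bounds the unadjusted p, and the adjusted p also depends on how many shares reached that bound. The other restricted forms were low everywhere. Cox4i2 had 0.801, 3.195 and 3.01 FPKM in ES cells and at most 0.0695 FPKM in any other replicate, Cox7b2 had 1.81, 0.160 and 0.980 FPKM in ES cells and at most 0.0301 FPKM elsewhere, and Cox8c had 0.846, 0.334 and 0.492 FPKM in ES cells and was listed at 0 elsewhere. These 3 genes, like Cox6b2, were detected above 0.1 FPKM in all 3 ES replicates, and Cox4i1, the partner of Cox4i2, held 99.7% of that family in ES cells. Cox6a2 reached 4.87 FPKM in NIH3T3 replicate 1 and at most 0.332 FPKM in the other 9 replicates, its entry overlapping that of Itgad, and Cox8b was above 0 in ES reporter 1 alone (0.117 FPKM). None of these 5 passed the filter of 1 FPKM in 3 replicates. With no filter, Cox4i2, Cox7b2 and Cox8c entered the line comparisons almost only through their ES values, so no test is given for them.

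Markers of skeletal muscle, heart and brown fat were low, and no list of testis or lung markers was examined. Summed FPKM of Acta1, Myh1 and Ckm (skeletal muscle) was 0.946 to 2.02 in ES cells, 0.0722 to 0.377 in NIH3T3 and 0 to 3.42 in NMuMG, where Myh1 and Ckm were listed at 0. That of Myh6 and Actc1 (heart) was 0.331 to 1.30 in ES cells, at most 0.00342 in NIH3T3 and at most 0.0153 in NMuMG, and that of Ucp1 and Adipoq (brown fat) was at most 0.153 in any replicate. Blood markers (Ptprc, Cd68 and Hba-a1) summed to at most 9.77 FPKM and endothelial markers (Cdh5 and Kdr) to at most 0.899 FPKM, both maxima in ES cells. Cyct, the testis cytochrome c, averaged 4.81 ± 2.08 FPKM in ES cells, 0.00753 ± 0.0131 FPKM in NIH3T3 and 0.0609 ± 0.122 FPKM in NMuMG, and passed the filter on level only through the ES replicates, so no test is given. Cycs, the somatic cytochrome c, and Slc25a31 were added after their values were seen. Cycs averaged 24.9 ± 4.14, 22.7 ± 8.95 and 20.4 ± 3.91 FPKM in the same order of lines. Slc25a31, a germ cell form of the ADP/ATP carrier, averaged 1.15 ± 0.594 FPKM in ES cells and at most 0.0136 FPKM in the other lines.

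Among the remaining subunits of complex IV, 5 were higher in ES cells than in NMuMG (Cox4i1, Cox5a, Cox5b, Cox7b and Cox7c). Cox7c had 338, 281 and 282 FPKM in ES cells, 152, 219 and 160 FPKM in NIH3T3, and 130, 125, 130 and 146 FPKM in NMuMG. Every ES value exceeded every other, by a log2 change of 1.17 ± 0.16 against NMuMG (adjusted p = 8.43e-05) and 0.77 ± 0.17 against NIH3T3 (adjusted p = 0.00231). Cox4i1, which joins the mitochondrially encoded Cox1 early in assembly, had 739, 824 and 918 FPKM in ES cells, 647, 646 and 641 FPKM in NIH3T3, and 512, 495, 438 and 562 FPKM in NMuMG. The lines did not overlap, and the change was called in ES cells against NMuMG (0.72 ± 0.15, adjusted p = 0.00136). Cox5a had 242, 373 and 430 FPKM in ES cells, where the parental replicate was close to the highest NIH3T3 value of 240 FPKM, and averaged 200 ± 57.0 FPKM in NIH3T3 and 183 ± 21.2 FPKM in NMuMG. Its call against NMuMG (0.89 ± 0.25, adjusted p = 0.00876) held in every fit that left out 1 replicate, and its call against NIH3T3 (0.80 ± 0.26, adjusted p = 0.0229) was lost with the block or when ES reporter 1, ES reporter 2 or NIH3T3 3 was left out. In parental cultures alone, which hold 1 ES replicate, the change was 0.40 against NMuMG and 0.01 against NIH3T3. Cox7b averaged 139 ± 13.5 FPKM in ES cells, 106 ± 6.18 FPKM in NIH3T3 and 92.4 ± 9.52 FPKM in NMuMG (0.58 ± 0.13 in ES against NMuMG, adjusted p = 0.00261), and Cox5b is taken up with the library series.

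Cox8a ran in another direction. It had 369, 428 and 534 FPKM in ES cells, 857, 970 and 716 FPKM in NIH3T3, and 402, 540, 418 and 626 FPKM in NMuMG. The NIH3T3 values were above all others, while ES and NMuMG overlapped and did not differ at the threshold (log2 change −0.15 ± 0.21, adjusted p = 0.532). NIH3T3 against NMuMG gave 0.78 ± 0.21 (adjusted p = 0.0126, not called with the block or without NIH3T3 2), and ES against NIH3T3 gave −0.94 ± 0.22 (adjusted p = 0.00421, not called with the block). Cox6a1, the widely expressed form of its subunit, was called higher in NIH3T3 (589 ± 44.7 FPKM) than in NMuMG (443 ± 16.4 FPKM) by 0.41 ± 0.15 (adjusted p = 0.0487). That call was lost with quantile normalization, a pseudocount of 0.1, no filter or the block, and without any 1 replicate other than ES reporter 2. Over complex IV, 9 of 13 tested members were called in ES against NMuMG (7 higher, 2 lower), 4 in NIH3T3 against NMuMG (2 higher, 2 lower) and 9 in ES against NIH3T3 (6 higher, 3 lower). These shares of 69.2%, 30.8% and 69.2% stand beside 68.2%, 40.4% and 62.7% of all symbols.

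In complex V, the catalytic head was higher in ES cells. Atp5b had 1138, 1294 and 1274 FPKM in ES cells, 743, 944 and 583 FPKM in NIH3T3, and 551, 655, 591 and 685 FPKM in NMuMG. Every ES value was above every value of the other lines, which overlapped each other. The log2 change was 0.99 ± 0.19 against NMuMG (adjusted p = 0.000817) and 0.73 ± 0.20 against NIH3T3 (adjusted p = 0.00843, also called with the block). Atp5a1, the alpha subunit that forms the head together with beta, and Atp5c1 were added after their values were seen. Atp5a1 had 506, 500 and 399 FPKM in ES cells, 315, 293 and 204 FPKM in NIH3T3, and 276, 308, 231 and 275 FPKM in NMuMG. Its ES values were also above all others, by 0.78 ± 0.18 against NMuMG (adjusted p = 0.00366) and by 0.80 ± 0.20 against NIH3T3 (adjusted p = 0.00493, not called with the block). Atp5c1, the gamma subunit of the rotating stalk, averaged 188 ± 2.20 FPKM in ES cells, 154 ± 23.5 FPKM in NIH3T3 and 127 ± 9 FPKM in NMuMG (0.57 ± 0.13 in ES against NMuMG, adjusted p = 0.00343). Atp5d, the delta subunit of that stalk, showed the opposite order with 169 ± 33.8 FPKM in ES cells, 281 ± 71.2 FPKM in NIH3T3 and 255 ± 67.8 FPKM in NMuMG, and was called lower in ES cells than in NIH3T3 (−0.71 ± 0.27, adjusted p = 0.0387), a call lost with the block and without ES parental 1, ES reporter 1, NIH3T3 1 or NIH3T3 2.

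The c-ring of ATP synthase is encoded by 3 genes whose mature proteins are identical. Atp5g1 had 129, 85.7 and 118 FPKM in ES cells, 77.4, 102 and 53.8 FPKM in NIH3T3, and 67.3, 61.9, 64.8 and 61.9 FPKM in NMuMG. All ES values lay above all NMuMG values (log2 change 0.76 ± 0.21, adjusted p = 0.00915), and NIH3T3 overlapped both. Atp5g3 was the main form in all lines, with 62.9% ± 0.558 of the c-ring sum in ES cells, 66.6% ± 4.98 in NIH3T3 and 65.1% ± 2.98 in NMuMG. Atp5g2 held 23.6% ± 1.42, 24.2% ± 4.75 and 25.0% ± 2.43, and Atp5g1 13.4% ± 1.79, 9.19% ± 1.61 and 9.91% ± 0.998 in the same order. The share of Atp5g1 in ES against NMuMG reached the smallest exact permutation p possible (0.0571, adjusted p = 0.214). Reads of such close copies could be split between them in ways the sources used here do not describe, so the shares are uncertain.

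Other members of complex V differed in NIH3T3. Atp5k, the e subunit of the membrane part, had 485, 570 and 632 FPKM in ES cells, 513, 847 and 699 FPKM in NIH3T3, and 316, 415, 359 and 426 FPKM in NMuMG. NMuMG was below both other lines. ES cells were higher than NMuMG by 0.57 ± 0.20 (adjusted p = 0.0273), a call lost with quantile normalization and without ES reporter 1, ES reporter 2, NMuMG parental 1 or NMuMG reporter 1. NIH3T3 was higher than NMuMG by 0.83 ± 0.20 (adjusted p = 0.00711), where the change was 0.30 with the block and not called. Atp5o, part of the stator stalk, averaged 247 ± 35.1 FPKM in ES cells, 136 ± 15.6 FPKM in NIH3T3 and 190 ± 31.7 FPKM in NMuMG. It was called higher in ES cells than in NIH3T3 (0.85 ± 0.18, adjusted p = 0.00208, also with the block). Atp5sl, whose product acts in complex I assembly, had 12.8, 13.3 and 9.86 FPKM in ES cells, 5.04, 4.74 and 5.46 FPKM in NIH3T3, and 7.86, 9.02, 8.70 and 9.78 FPKM in NMuMG. The lines did not overlap, but ES reporter 2 (9.86 FPKM) lay close to NMuMG reporter 2 (9.78 FPKM). The log2 change was 1.09 ± 0.16 in ES against NIH3T3 (adjusted p = 0.000191) and −0.69 ± 0.15 in NIH3T3 against NMuMG (adjusted p = 0.00395, not called with the block). In ES against NMuMG it was 0.39 ± 0.15 (adjusted p = 0.0378), and 0.064 within library series 2. That call was lost without ES parental 1, ES reporter 1, NMuMG parental 1, NMuMG parental 2 or NMuMG reporter 1. Atp5s was the lowest of the group at 2.31 ± 0.552, 1.90 ± 0.820 and 3.56 ± 1.02 FPKM. Over complex V, 8 of 17 members were called in ES against NMuMG (all 8 higher), 5 in NIH3T3 against NMuMG (2 higher, 3 lower) and 7 in ES against NIH3T3 (6 higher, 1 lower). These were 47.1%, 29.4% and 41.2% of its members, below the 68.2%, 40.4% and 62.7% of all symbols called. In ES against NMuMG, the replicate block added calls of Atp5d (lower in ES cells), Atp5e and Atp5o, and that of Atp5sl was lost.

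Complex I members moved in both directions. Ndufs1, the largest subunit of the electron input module, had 57.7, 61.5 and 62.5 FPKM in ES cells, 41.1, 47.0 and 36.9 FPKM in NIH3T3, and 31.7, 33.8, 29.6 and 33.6 FPKM in NMuMG. The lines were fully separated in the order ES, NIH3T3, NMuMG, with a log2 change of 0.89 ± 0.12 in ES against NMuMG (adjusted p = 0.000107) and 0.54 ± 0.13 in ES against NIH3T3 (adjusted p = 0.00494, also with the block). Its change in NIH3T3 against NMuMG (0.36 ± 0.12, adjusted p = 0.0411) was not called with the block or without any 1 replicate other than NIH3T3 3. Ndufs8, a core iron-sulfur subunit, had 60.3, 46.8 and 76.3 FPKM in ES cells, 116, 119 and 102 FPKM in NIH3T3, and 69.3, 84.4, 65.0 and 79.3 FPKM in NMuMG. NIH3T3 was the highest, and ES cells were lower by −0.89 ± 0.19 (adjusted p = 0.00195, also with the block). NIH3T3 against NMuMG gave 0.59 ± 0.17 (adjusted p = 0.0211, not with the block or without NIH3T3 1, NIH3T3 2, NMuMG parental 1 or NMuMG reporter 1). Ndufa5, an accessory subunit, showed the same order with 89.5 ± 13.5 FPKM in ES cells, 139 ± 14.2 FPKM in NIH3T3 and 91.4 ± 11.2 FPKM in NMuMG, and was called in both comparisons with NIH3T3 (adjusted p = 0.00567 against ES cells and 0.00855 against NMuMG, neither with the block).

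The 3 complex I members that were lower in ES cells than in NMuMG were accessory subunits. Ndufa8 had 92.0, 86.4 and 90.6 FPKM in ES cells, 109, 136 and 118 FPKM in NIH3T3, and 139, 147, 132 and 144 FPKM in NMuMG. ES values were the lowest throughout (−0.64 ± 0.12 against NMuMG, adjusted p = 0.000853). Ndufa3 had 171, 197 and 262 FPKM in ES cells, 247, 296 and 319 FPKM in NIH3T3, and 313, 330, 334 and 333 FPKM in NMuMG (−0.66 ± 0.17 against NMuMG, adjusted p = 0.00481). It was also called lower than in NIH3T3 (−0.47 ± 0.18, adjusted p = 0.0396), but ES reporter 2 lay above NIH3T3 1 and the change was −0.11 with the block and 0.08 within library series 2. Ndufa6 had 145, 182 and 199 FPKM in ES cells, 202, 113 and 140 FPKM in NIH3T3, and 242, 212, 300 and 417 FPKM in NMuMG. NMuMG was highest, with a spread set largely by reporter 2, and its calls (−0.70 ± 0.26 in ES, adjusted p = 0.0363, and −0.94 ± 0.26 in NIH3T3, adjusted p = 0.0163) were lost in ES cells without ES parental 1, ES reporter 1, NMuMG reporter 1 or NMuMG reporter 2 and with median-ratio scaling, and in NIH3T3 without NIH3T3 2 and with the block (−0.59). Ndufc2 was called lower in NIH3T3 (104 ± 13.5 FPKM) than in NMuMG (150 ± 15.2 FPKM) by −0.52 ± 0.14 (adjusted p = 0.0119, not with the block). Ndufa11, part of the membrane arm, was the lowest of the detected complex I members with 21.5 ± 3.62 FPKM in ES cells, 20.3 ± 4.63 FPKM in NIH3T3 and 12.2 ± 3.06 FPKM in NMuMG, and was called higher in ES cells than in NMuMG (0.78 ± 0.23, adjusted p = 0.0105). Over complex I, 12 of 35 tested members were called in ES against NMuMG (9 higher, 3 lower), 8 in NIH3T3 against NMuMG (5 higher, 3 lower) and 13 in ES against NIH3T3 (7 higher, 6 lower). These were 34.3%, 22.9% and 37.1% of its tested members, below the 68.2%, 40.4% and 62.7% of all symbols called.

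Ndufa4 had the highest mean over the lines of the genes with a complex I name. It had 389, 391 and 391.9 FPKM in ES cells, 589, 578 and 588 FPKM in NIH3T3, and 449, 458, 460 and 551 FPKM in NMuMG. The lines did not overlap, and the ES against NIH3T3 change was −0.58 ± 0.14 (adjusted p = 0.00410, not with the block). Its relative Ndufa4l2, which is known as a hypoxia-inducible gene, had 35.7 and 34.2 FPKM in the 2 technical runs of ES reporter 1 and was listed at 0 in every other library, ES reporter 2 included. Its entry overlaps that of Shmt2, which had 97.8 and 96.9 FPKM in the same 2 runs, 68.5 FPKM in ES parental 1 and 80.0 FPKM in ES reporter 2, so reads could be shared between the entries. In NIH3T3 1, where Ndufa4l2 was listed at 0, Shmt2 had 130 FPKM. Ndufs5 was listed at 0 in 9 of 11 libraries, with 3.94 FPKM in NIH3T3 1 and 2.13 FPKM in NIH3T3 3, although its product is an accessory subunit made in most cells. The entry BC002163 at the same locus had 16.5 to 54.2 FPKM in all 11 libraries. Ndufa4l2 and Ndufs5 did not pass the filter. With no filter, Ndufs5 entered only through NIH3T3 1 and NIH3T3 3, so no test is given for it.

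In complex III, Uqcrc1 was higher in ES cells than in both other lines and Uqcrc2 was lower in NIH3T3 than in both others. Both encode core proteins of the matrix arm. Uqcrc1 had 139, 169 and 187 FPKM in ES cells, 109, 89.6 and 56.7 FPKM in NIH3T3, and 81.8, 110, 78.6 and 93.5 FPKM in NMuMG. ES values were above all others, by 0.85 ± 0.22 against NMuMG (adjusted p = 0.00634) and 0.99 ± 0.24 against NIH3T3 (adjusted p = 0.00453, not with the block). Uqcrc2 had 101, 106 and 92.8 FPKM in ES cells, 69.0, 52.5 and 51.5 FPKM in NIH3T3, and 101, 99.9, 93.9 and 105 FPKM in NMuMG. It was lower in NIH3T3 than in NMuMG by −0.79 ± 0.13 (adjusted p = 0.000840), where the change was −0.52 with the block and no longer called, and ES cells were higher than NIH3T3 by 0.79 ± 0.14 (adjusted p = 0.000759, 0.51 with the block and not called). Uqcrh, the hinge protein next to cytochrome c1, was called higher in NIH3T3 (290 ± 20.5 FPKM) than in NMuMG (198 ± 45.8 FPKM, adjusted p = 0.0323) and lower in ES cells (190 ± 29.3 FPKM) than in NIH3T3 (adjusted p = 0.0201), neither with the block. The first of these calls was also lost without any 1 NIH3T3 replicate and without NMuMG parental 1, NMuMG parental 2 or NMuMG reporter 1, the other without ES reporter 2 or NIH3T3 3. Uqcrfs1, the Rieske iron-sulfur protein, had the lowest mean over the lines (83.4 ± 6.95 FPKM in ES cells, 59.0 ± 14.2 FPKM in NIH3T3 and 76.8 ± 5.08 FPKM in NMuMG), and Uqcrq had the highest with 349 ± 17.0, 359 ± 92.3 and 396 ± 59.2 FPKM. Of the 8 genes, 2 were called in ES against NMuMG (both higher), 2 in NIH3T3 against NMuMG (1 in each direction) and 4 in ES against NIH3T3 (3 higher, 1 lower), where 68.2%, 40.4% and 62.7% of all symbols were called.

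The 4 genes of complex II, which also work in the citric acid cycle, gave no call in any comparison. Sdha, the flavoprotein, had 87.0, 83.8 and 103 FPKM in ES cells, 70.0, 83.1 and 77.2 FPKM in NIH3T3, and 102, 92.4, 92.2 and 93.0 FPKM in NMuMG. Sdhb, the iron-sulfur subunit, had 75.5, 106 and 118 FPKM in ES cells, 94.4, 82.2 and 64.6 FPKM in NIH3T3, and 74.7, 91.1, 75.1 and 75.0 FPKM in NMuMG. The lines overlapped in Sdhb, and in Sdha the NIH3T3 values were all below those of NMuMG. The membrane anchors were similar: Sdhc averaged 98.5 ± 16.05, 82.0 ± 13.5 and 109 ± 10.99 FPKM and Sdhd 72.6 ± 3.89, 68.2 ± 7.70 and 82.6 ± 9.58 FPKM in ES cells, NIH3T3 and NMuMG. The smallest adjusted p among the 4 genes was 0.0677, for Sdhc in NIH3T3 against NMuMG (log2 change −0.42 ± 0.16), which was called without NIH3T3 1 (−0.54). Sdhb was called in ES against NMuMG without ES parental 1 (0.50), and in parental cultures alone its change was −0.125. A p above the threshold does not show equal levels.

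**Figure D4:**
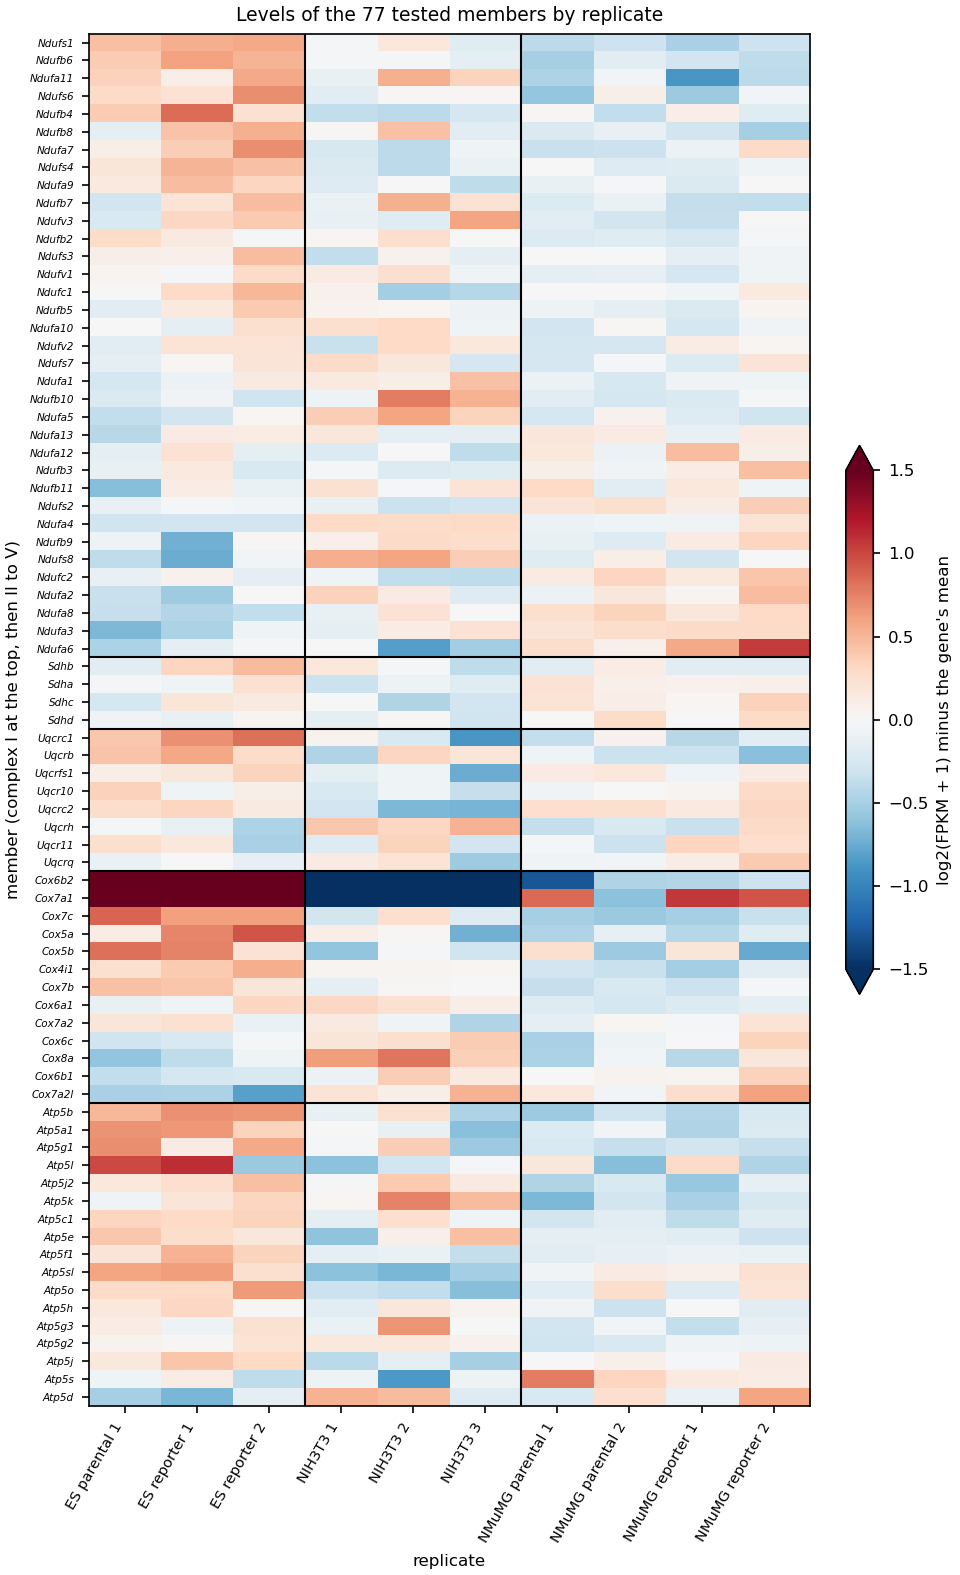
Centred log2(FPKM + 1) of the 77 tested members (rows, by complex and then by change in ES against NMuMG) in the 10 replicates (columns, ES, NIH3T3, NMuMG), with the colour scale ending at 1.5 in either direction. The Cox6b2 and Cox7a1 rows exceed the scale in ES cells and in NIH3T3, whereas the rows of complex II stay pale in all lines.

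Carrying the BRE reporter went with no called change in any member. In NMuMG reporter cultures against parental ones, 0 of 78 members were called (1 at an unadjusted p under 0.05, Ndufa6), where 26 of 12276 symbols (0.212%) were and 5.17% had an unadjusted p under 0.05. In ES reporter cultures against the 1 parental culture, 0 of 78 were called (7 at an unadjusted p under 0.05), where 12 symbols (0.0978%) were and 8.95% had an unadjusted p under 0.05. The members' changes ranged from −0.41 to 0.89 in NMuMG and from −0.72 to 1.19 in ES cells, with medians of 0.04 and 0.11. The NMuMG median was 0.13 without NMuMG reporter 1 and −0.05 without NMuMG reporter 2. With 2 against 2 and 2 against 1 replicates the test is weak: of 100 symbols changed by 1 on the log2 scale in simulated data, 11 were found in the NMuMG and 1 in the ES comparison. The largest ES change was that of Cox4i2, with 3.195 and 3.01 FPKM in reporter cultures and 0.801 FPKM in the parental culture. The first value is the mean of technical runs at 4.20 and 2.19 FPKM. Cox4i2 passed the filter on level only through the 2 ES reporter cultures, where it was high, so no test is given for it. It is counted among the 7 members above. The difference between the ES and the NMuMG reporter effect, added after seeing the data, gave 0 called members (5 at an unadjusted p under 0.05) and 3 called symbols (0.0244%, with 7.89% at an unadjusted p under 0.05).

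Library series were compared within ES cells and NMuMG, where no member passed the test. Atp5l, the g subunit of ATP synthase, singled out after its values were seen, had 264 and 286 FPKM in ES replicates of series 1 and 89.4 FPKM in that of series 2, and 149 and 162 FPKM in NMuMG replicates of series 1 and 84.5 and 96.5 FPKM in those of series 2. In NIH3T3 it had 86.2 FPKM in series 2 and 109 and 131 FPKM in series 3. The series 2 value of ES cells thus lay near those of the other lines, and Atp5l was not called in ES against NMuMG (0.67 ± 0.40, adjusted p = 0.157). It was called within series 1 (0.82, adjusted p = 0.00430) and without ES reporter 2 (1.21, adjusted p = 0.00559), and the change was −0.015 within series 2. Cox5b, a zinc-binding complex IV subunit, had 198 and 189 FPKM in ES series 1 and 130 FPKM in ES series 2, 73.9 FPKM in NIH3T3 series 2 and 110 and 91.0 FPKM in NIH3T3 series 3, and 132 and 127 FPKM in NMuMG series 1 and 76.2 and 65.9 FPKM in NMuMG series 2. ES values exceeded NMuMG values within each series, and the call in ES against NMuMG (0.82 ± 0.28, adjusted p = 0.0230) was lost without ES parental 1, ES reporter 1, NMuMG parental 2 or NMuMG reporter 2. In a test of series 2 against series 1 over ES and NMuMG, added after seeing the data, 0 of 78 members were called and 16 (20.5%) had an unadjusted p under 0.05, against 42 (0.342%) and 900 (7.33%) of 12276 symbols. Across the 78 members, changes between series correlated with transcript length on the log2 scale at Pearson's r = 0.036 (a description). The share of short RNA also differed between the series, and the cause of these changes was not tested.

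**Figure D5:**
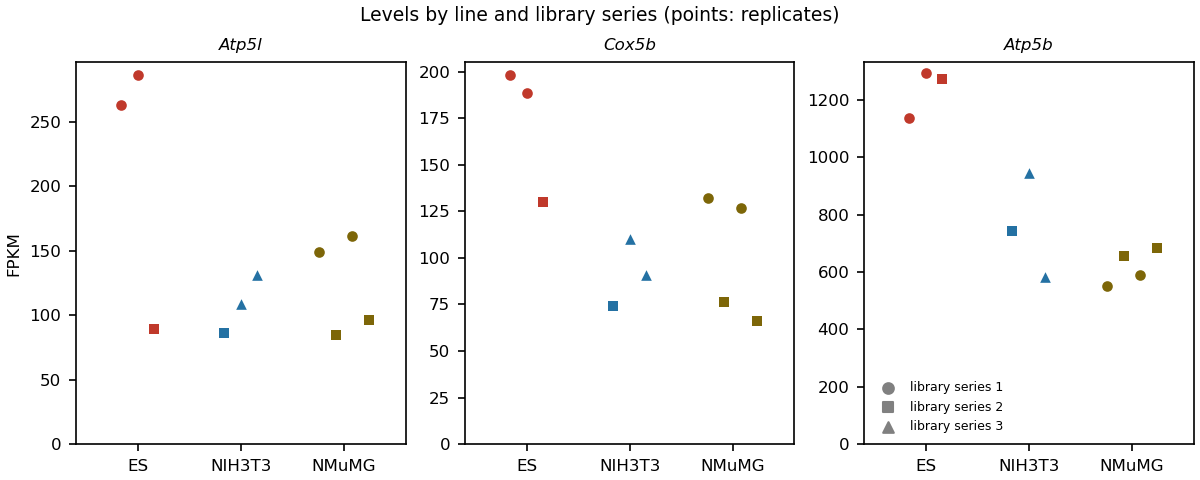
FPKM of Atp5l, Cox5b and Atp5b in ES, NIH3T3 and NMuMG replicates (points), with the symbol shape giving the library series and each vertical axis starting at 0. In ES cells and NMuMG the series 2 squares lie below the series 1 circles for Atp5l and Cox5b, and not for Atp5b.

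Genes that build or control the chain were counted from lists outside the members. For each list, the shares of all symbols called were 30.7% higher and 37.5% lower in ES against NMuMG, 16.5% and 23.9% in NIH3T3 against NMuMG, and 30.8% and 31.9% in ES against NIH3T3. Of 35 tested assembly factors, 10 were higher and 8 lower in ES cells than in NMuMG, 2 higher and 9 lower in NIH3T3 than in NMuMG, and 10 higher and 4 lower in ES cells than in NIH3T3, with medians of −0.13, −0.16 and 0.08. Sco2, a copper chaperone of complex IV, was listed at 0 in all ES and NIH3T3 replicates and averaged 32.2 ± 4.30 FPKM in NMuMG. It passed the filter on level only through NMuMG, and is counted among the lower in both comparisons with NMuMG. Overlap with other entries was tabulated for members only, so a listed 0 of Sco2 may not mean absent mRNA. Cox14, which acts on the synthesis of the Cox1 protein, averaged 38.8 ± 4.30 FPKM in ES cells, 92.2 ± 12.4 FPKM in NIH3T3 and 170 ± 40.1 FPKM in NMuMG (−2.08 ± 0.19 in ES against NMuMG, adjusted p = 6.10e-06). Coa3, its partner, averaged 52.9 ± 10.99, 65.4 ± 6.43 and 143 ± 14.9 FPKM in the same order (−1.43 ± 0.16, adjusted p = 2.47e-05). Of the 10 factors higher in ES cells than in NMuMG, Ndufaf6 changed most (1.64 ± 0.28, adjusted p = 0.000488). Ndufaf3, a complex I assembly factor, averaged 13.1 ± 2.20 FPKM in ES cells, 1.33 ± 0.842 FPKM in NIH3T3 and 12.7 ± 1.31 FPKM in NMuMG (−2.62 ± 0.24 in NIH3T3 against NMuMG, adjusted p = 8.99e-06).

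Of 21 tested regulators of mitochondrial genes, 12 were higher and 4 lower in ES cells than in NMuMG, 5 higher and 6 lower in NIH3T3 than in NMuMG, and 11 higher and 3 lower in ES cells than in NIH3T3. Over all symbols, 68.2%, 40.4% and 62.7% were called in either direction in these comparisons. The regulators higher in ES cells include Esrrb, which passed the filter on level only through the ES replicates. Esrra, the ERR-alpha receptor, averaged 6.70 ± 0.986 FPKM in ES cells, 15.6 ± 4.25 FPKM in NIH3T3 and 47.2 ± 6.03 FPKM in NMuMG, whereas Esrrb, its relative and an ES marker, averaged 140 ± 69.8 FPKM in ES cells and at most 0.0832 FPKM in the other lines. Pprc1, a coactivator of the PGC-1 family, averaged 43.2 ± 3.28, 21.9 ± 7.46 and 12.7 ± 3.16 FPKM (1.71 ± 0.24 in ES against NMuMG, adjusted p = 0.000123), and Gabpb1, a subunit of the GABP factor, 23.8 ± 2.43, 10.8 ± 1.16 and 8.53 ± 0.580 FPKM (1.37 ± 0.14, adjusted p = 1.02e-05).

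Of 16 tested carriers and subunits outside the symbol rule, 4 were higher and 2 lower in ES cells than in NMuMG. In NIH3T3 against NMuMG 1 was higher and 3 lower, and in ES cells against NIH3T3 6 were higher and 4 lower. Of all symbols, 68.2%, 40.4% and 62.7% were called in either direction in the same order. Cyct, which passed the filter on level only through the ES replicates, is counted among those higher in ES cells. Slc25a4, the ADP/ATP carrier known from heart and muscle, averaged 170 ± 33.4 FPKM in ES cells, 634 ± 155 FPKM in NIH3T3 and 295 ± 40.4 FPKM in NMuMG (−1.88 ± 0.22 in ES against NIH3T3, adjusted p = 3.89e-05, and 1.09 ± 0.21 in NIH3T3 against NMuMG, adjusted p = 0.00185). Dhodh, which feeds electrons from pyrimidine synthesis to ubiquinone, averaged 29.8 ± 7.84, 8.26 ± 1.34 and 7.40 ± 1.33 FPKM in ES cells, NIH3T3 and NMuMG (1.86 ± 0.21 in ES against NMuMG, adjusted p = 2.15e-05). Of 17 genes of the citric acid cycle and pyruvate dehydrogenase, 5 were higher and 0 lower in ES cells than in NMuMG, 2 higher and 3 lower in NIH3T3 than in NMuMG, and 5 higher and 2 lower in ES cells than in NIH3T3, beside the same shares of all symbols. Pdhb, a pyruvate dehydrogenase subunit, averaged 89.2 ± 8.82, 31.2 ± 9.32 and 44.7 ± 2.73 FPKM (0.98 ± 0.18 in ES against NMuMG, adjusted p = 0.000693).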

How the data were processed

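Total RNA (RNeasy columns, NEBNext Ultra kit, per the labels) gave 11 libraries. Per the submitters' processing notes, bcl2fastq 1.8.4, TopHat and Cufflinks were used with the mm10 build, and the deposited tables hold FPKM per gene with an interval. How reads that match several places were treated is not given in the sources used here. Entries with the same symbol were summed, and Fn1, Rn45s and Tpm3 were left out because quantification was marked as failed or too deep in at least 1 library. Of the 84 members, 13 overlap another entry, 9 are at 0 in at least 1 library, and 63 lie outside their own deposited interval in at least 1 library, so those intervals were not used as errors. Depth was therefore taken as the ratio of upper bounds at 503 entries listed at 0, a rough measure, and precision comes from the spread between replicates.

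limma 3.58.1 (R 4.3.3) was fitted with an intensity trend to log2(FPKM + 1), two-sided, with Benjamini-Hochberg adjustment over all symbols. Line comparisons used 10 replicates and symbols of at least 1 FPKM in 3 of them (77 of 84 members), and reporter comparisons 7 replicates and 2 of them (78 members). Fold changes understate changes of low genes. The procedure was tested on simulated data: of 100 symbols changed by 1 on the log2 scale, 57 were recovered for ES against NMuMG, 56 for NIH3T3 against NMuMG and 38 for ES against NIH3T3, with 11 false calls each. The simulated data held 100 symbols changed by 1 and 100 changed by 3 among 11725 fitted for ES against NMuMG. A far larger share was called in the real data, and the adjustment depends on that share, so recovery there may differ. Isoform shares were compared with exact permutation tests.

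Library series were read from number runs in the table names. Differences between cultures numbered 1 and 2 correlated across 12350 symbols (r = 0.283, 0.353 and 0.372 for the 3 group pairs with both numbers). In ES cells and NMuMG the culture number and the series coincide, so the correlation cannot tell them apart. NIH3T3 1 lies in series 2. The series served as replicate block, and the labels do not say what the number runs mean.

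Members named are those of the isoform families, the highest and lowest of each complex, the 6 largest called changes in each direction per line comparison and the Sdh genes, and at most 5 genes per other list. Members, lists and tests were chosen with earlier results of these data known. Promoter windows are RefSeq's for GRCm38.p6, transcript lengths those of GENCODE M21. Figures were drawn with matplotlib 3.10.9 and tables made with pandas 2.3.3, using SciPy 1.17.1 for exact tests, under Python 3.11.15 with NumPy 2.4.6.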

Additional observations from a re-analysis of the deposited data

Results flagged for a closer look

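Among the 4 NMuMG replicates, 1 value stood far from the other 3 in 6 of the members named, of 51 values examined (46 members and 5 complex sums). Chance gives about 1 such flag in 20. In NMuMG reporter 2, Cox6b1 stood at 587 FPKM, with 464 to 480 FPKM in the other 3 replicates, Ndufa4 at 551 FPKM, with 449 to 460 FPKM, and Uqcrh at 266 FPKM, with 169 to 185 FPKM. NMuMG reporter 2 also had the highest summed FPKM of the members in its line. In NMuMG parental 1, Sdha stood at 102 FPKM, with 92.2 to 93.0 FPKM in the others, in NMuMG parental 2 Sdhb at 91.1 FPKM, with 74.7 to 75.1 FPKM, and in NMuMG reporter 1 Uqcrfs1 at 69.3 FPKM, with 78.6 to 80.5 FPKM. The cause was not tested.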

How the results depend on the processing

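The total counts of called members stayed within 1.5 times of those reported under other pseudocounts, filters, scalings and single technical runs, except in 1 case. That case was the ES reporter comparison with no filter, where Cox4i2 was added. Cox4i2 was near 0 outside ES cells and reached 1 FPKM only in the ES reporter cultures, so no test is given for it. Smaller counts moved more: members lower in ES against NMuMG numbered 3 with median-ratio scaling and 10 with quantile normalization, and the 2-fold counts were 1 for NIH3T3 against NMuMG with a pseudocount of 5 and 5 for ES against NIH3T3 with no filter. With the library series as replicate block, the count was 34 for ES against NMuMG, 2 for NIH3T3 against NMuMG and 14 for ES against NIH3T3, with 68.4%, 23.3% and 44.3% of all symbols called, and it left the reporter comparisons at 0. Within library series 1 it was 29 for ES against NMuMG (62.9% of all symbols). Within library series 2 the 3 line comparisons gave 2, 0 and 2 (25.4%, 4.03% and 16.6% of all symbols), and parental cultures alone also 2, 0 and 2 (33.9%, 7.59% and 25.4%). These fits rest on 1 ES and 1 NIH3T3 library, whose spread is assumed to be like that of NMuMG. With the block, the NIH3T3 changes also rest on NIH3T3 1 alone, so calls lost there can reflect fewer replicates. Leaving out 1 replicate gave 22 to 33 calls for ES against NMuMG, 10 to 19 for NIH3T3 against NMuMG and 24 to 33 for ES against NIH3T3. The lowest counts came without ES reporter 1 (22 and 24) and, for NIH3T3 against NMuMG, without NIH3T3 2 (10), NMuMG parental 1 (11) or NMuMG reporter 1 (11). Calls present in every such fit numbered 21 of 31, 8 of 19 and 21 of 33, and 21, 2 and 9 of those were also called with the block. Among named members, Ndufa3 in ES against NIH3T3 reversed within series 2 (0.080), as did the uncalled changes in ES against NMuMG of Atp5l within series 2 (−0.015) and of Sdhb in parental cultures (−0.125). In ES cells, the summed FPKM of complex III and IV was 1438 and 4053 within series 2, and that of complex V was 5286.5 with median-ratio scaling. Alternatives for single members were tabulated for called changes and for 4 uncalled ones, of Cox8a, Sdhb, Sdhc and Atp5l. Depth beyond the relative values is unknown, which limits what can be said of members near 0. The cause of these shifts was not tested.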
